A study of Drosophila melanogaster with 24 samples.

Results

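The comparison described here set *Drosophila* S2 cells with dsRNA against *Sin3A* and oxidative stress against S2 cells with neither treatment. It was taken from 1 table, in which cells with dsRNA against *Sin3A* and paraquat stand beside unstressed cells with dsRNA against GFP, the GFP RNAi control. These are 6 of the 24 samples of the series, 3 biological replicates in each of the 2 groups. The table lists 14542 gene loci, and the 8187 loci that it marks as testable (status OK) are the members described. Cells of both groups received dsRNA 4 days before RNA was extracted. Only the stressed *Sin3A* knockdown also had 8.3 mM paraquat, for the last 24 h, so the combined difference holds the effects of the knockdown and of the stress together. To separate them, the *Sin3A* knockdown without paraquat and the GFP RNAi control with paraquat were read beside it. The same 4 states with dsRNA against *lid* in addition, which are the other 4 groups of the series, served as a repeat in other libraries. S2 is a cultured line derived from embryonic blood cells, so all values are those of 1 cell line.

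SIN3 is the scaffold of a histone deacetylase complex. It holds the deacetylase RPD3, and in one form of the complex the H3K4 demethylase dKDM5/LID, the product of *lid*. The complex is known for the repression of transcription and for a need in cell proliferation. Paraquat takes electrons from cellular reductases and passes them to oxygen, which makes superoxide inside the cell. Cells answer such stress with glutathione enzymes, thioredoxins, metal-binding proteins and changes of growth and metabolism.

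Expression was read as FPKM, the number of sequenced fragments scaled by transcript length and by library size. The authors combined the 3 replicates of a group into 1 FPKM value. Every FPKM below is therefore their pooled value, with no spread between replicates. The paper states an approximate depth of coverage, but the read depth of each library is not known. The FPKM values summed to 799208 in the control and 814105 in the stressed *Sin3A* knockdown, and the median log2 level of the latter differed from that of the control by -0.009. The targeted transcript did not show the knockdown. The paper checked it by western blot of SIN3 protein and reports an efficient reduction, and protein is not measured by the FPKM values. *Sin3A* (chromosome 2R of dm3, 8459617 to 8480397) had 67.9 FPKM in unstressed controls, 61.7 after *Sin3A* dsRNA, 62.0 after paraquat and 59.7 FPKM after both. With *lid* dsRNA the same 4 states had 62.5, 58.0, 66.5 and 58.8 FPKM. Its fitted difference was -0.14 on the log2 scale (limma, SE 0.068, adjusted p = 0.14), so "*Sin3A* knockdown" below follows the label of the libraries and not their *Sin3A* transcript. For the other target, *lid* transcript stood at 37.2 FPKM in the control and 43.0 FPKM in the stressed *Sin3A* knockdown, which had no *lid* dsRNA. As for the identity of the cells, 6 of the 7 hemocyte markers reached 1 FPKM in at least 1 group, with *He*, *vkg*, *Cg25C*, *Pxn* and *srp* above 20 FPKM in all 8, and *Hml* stayed below 1 FPKM. Markers of neurons and glia summed to 3.72 FPKM in the control and 5.31 FPKM in the stressed knockdown, those of muscle to 2.27 and 3.54 FPKM, and those of fat body and gut to 0.262 and 0.114 FPKM. The higher sums came from 1 gene each, *elav* of neurons (3.215 and 4.867 FPKM) and *Mlc2* of muscle (0.931 and 2.155 FPKM). Germline markers summed to 51.7 and 39.9 FPKM, mostly from *aub*.

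The stressed *Sin3A* knockdown differed widely from the unstressed control, with falls somewhat more frequent and larger than rises. Among the 8187 loci, 1317 were more than 1.4-fold higher in pooled FPKM and 1522 more than 1.4-fold lower, which is 16.1% and 18.6%. More than 2-fold differences were seen at 345 loci in the upward and 549 in the downward direction. These ratios of pooled values carry no test. To obtain one, all 8 group values of a locus were fitted with limma by the 4 states of *Sin3A* dsRNA and paraquat, with *lid* dsRNA as a block, over the 7627 loci that averaged at least 1 FPKM. The error of this fit is how well a state repeated without and with *lid* dsRNA. It is not a replicate error. A constant shift with *lid* dsRNA is taken up by the block. A locus whose response to the 4 states depends on *lid* dsRNA gets a large error. The fitted difference is the log2 difference between the states averaged over both *lid* conditions, with 0.1 FPKM added, whereas the log2 ratio is that of the 2 pooled values alone. The median SE of a fitted difference was 0.085. A locus was called when its p-value, adjusted over all 7627 loci, was below 0.05 and its pooled values differed more than 1.4-fold in the same direction, and only called loci are said to have risen or fallen.

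By this rule 998 loci rose (13.1% of those fitted) and 1159 fell (15.2%), 28.3% in all. More than 2-fold changes made up 234 of the rises and 394 of the falls. All 2157 called loci had the same direction with *lid* dsRNA, where the stressed dual knockdown was set against the *lid* knockdown; since these values enter the fit, this is a description and not a separate check. The median log2 ratio was 0.73 over the called rises and 0.70 in the pair with *lid* dsRNA, and -0.82 and -0.70 over the falls. Without the GFP RNAi value, with the unstressed state resting on the *lid* knockdown, 884 loci were called higher and 907 lower. The fold was then that of the stressed dual knockdown against the *lid* knockdown. A call can thus be lost there because that pair differed less than 1.4-fold.

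**Figure D1:**
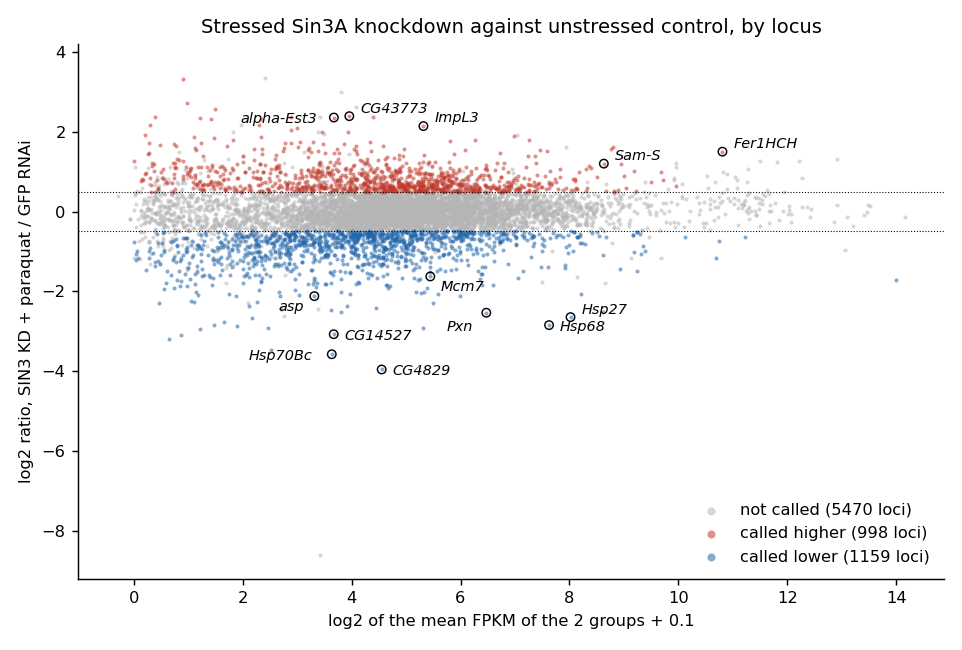
Each point is 1 of the fitted loci, with the log2 of its mean FPKM in the 2 groups plus 0.1 on the x axis and its log2 ratio of pooled FPKM in stressed *Sin3A* knockdown to unstressed control on the y axis; 12 loci with no finite ratio are not drawn. The dotted lines mark 1.4-fold, red points are the 998 called rises, blue points the 1159 called falls and grey points were not called, with *Fer1HCH* as a rise at a high level and *CG4829* as the largest named fall.

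Among called loci of 1 gene whose 2 pooled values were each 1 FPKM or more, the 8 largest rises included a lactate dehydrogenase, an esterase, a transcription factor and genes without a known role. *CG43773* and *CG15423*, neighbours on chromosome 2L of dm3 (4007690 to 4007984 and 4006041 to 4006606), had nearly the same profile. *CG43773* had 4.95 FPKM in unstressed controls, 3.81 after *Sin3A* dsRNA, 15.1 after paraquat and 26.0 after both, and at 5.17, 6.97, 21.8 and 50.0 FPKM in the same order with *lid* dsRNA. It was low in the 4 groups without paraquat and highest where paraquat met *Sin3A* dsRNA, with a 5.25-fold rise and a fitted difference of 2.81 (limma, SE 0.21, adjusted p = 0.00045). For *CG15423* the 4 values were 6.72, 5.62, 18.2 and 34.9 FPKM, with a fitted difference of 2.45 (limma, SE 0.11, adjusted p = 0.0002). *alpha-Est3*, a carboxylesterase gene of the alpha-esterase cluster, followed the knockdown instead. Its values were 4.14, 19.5, 4.94 and 21.2 FPKM, and the 4 groups with *Sin3A* dsRNA, with or without paraquat and *lid* dsRNA, all lay at 14.7 FPKM or above while the other 4 stayed at 5.40 FPKM or below.

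*ImpL3* encodes lactate dehydrogenase, which turns pyruvate to lactate at the end of glycolysis. It rose in both steps, from 14.7 FPKM in the control to 25.8 with the knockdown, 42.9 with paraquat and 64.9 FPKM with both, a fitted difference of 1.88 (limma, SE 0.12, adjusted p = 0.00036). *dmrt93B*, a transcription factor of the doublesex family, went from 1.66 to 8.30 FPKM, with 2.18 FPKM in the *Sin3A* knockdown and 4.63 FPKM in the stressed control. *Pebp1*, of the phosphatidylethanolamine-binding protein family, stood at 1.75, 2.16, 4.52 and 7.89 FPKM in the same order. Each was at its highest among the 4 states where both treatments met. *CG8369* differed in that paraquat alone left it near the control, with 3.02, 4.91, 4.14 and 12.9 FPKM, and 4.32, 11, 5.73 and 18.9 FPKM with *lid* dsRNA. The small nucleolar RNA locus *snoRNA:Psi28S-3385a* was called too, but its control value of 2.35 FPKM was the lowest of the 8 groups and the other 7 lay between 7.56 and 12.2 FPKM. Its fitted difference of 1.42 (limma, SE 0.47, adjusted p = 0.047) was no longer called without the control value.

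Of the 8 largest falls under the same floor of 1 FPKM for each value, 5 were those of heat shock genes, described with the other chaperones. The largest of them was that of *CG4829*, a predicted gamma-glutamyl transpeptidase, an enzyme that breaks down glutathione outside the cell. *CG4829* (chromosome X of dm3, 16705732 to 16720527) had 43.9 FPKM unstressed and 6.59 with the knockdown, 17.2 with paraquat and 2.83 FPKM with both, 15.5-fold lower. With *lid* dsRNA the 4 values were 13.1, 5.74, 6.03 and 2.60 FPKM, so the control without *lid* dsRNA stood far above the other 7 groups, and the fitted difference was -3.10 (limma, SE 0.44, adjusted p = 0.0026). *CG14527*, which RefSeq names *Nepl20*, a neprilysin-like peptidase, had 22.6, 3.67, 13.1 and 2.69 FPKM. Its 4 values with *Sin3A* dsRNA (2.69 to 4.37 FPKM) lay well below the other 4 (11.7 to 16.9 FPKM, and 22.6 FPKM in the control), with a fitted difference of -2.65 (limma, SE 0.19, adjusted p = 0.00043). *Pxn* encodes peroxidasin, a peroxidase that crosslinks collagen IV in basement membranes. It fell in both steps, from 151 to 50.9, 65.4 and 26.1 FPKM, and with *lid* dsRNA from 91.6 to 41.4, 46.4 and 23.6 FPKM, a fitted difference of -2.24 (limma, SE 0.14, adjusted p = 0.00029).

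The gene lists below were put together for this comparison with earlier results of these data known, so their counts describe the lists and do not test them. Each is to be read against the 13.1% and 15.2% called over all fitted loci and the median log2 ratio of -0.01. The last step toward the stressed *Sin3A* knockdown was also fitted from either side. *Sin3A* dsRNA within paraquat-treated cells, called by the same rule, raised 735 loci (9.64%) and lowered 725 (9.51%), and paraquat within the *Sin3A* knockdown raised 353 (4.63%) and lowered 409 (5.36%). Both steps end in the same stressed *Sin3A* knockdown as the combined difference and are therefore given as values beside it.

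Genes that copy DNA and divide the cell were lower almost throughout. Of 48 DNA replication loci, all fitted, 41 fell and 0 rose, with a median log2 ratio of -0.96 and with 48 of 48 ratios below 0. *Mcm7*, a subunit of the replicative helicase on chromosome 3L of dm3 (8884696 to 8887410), had 65.6 FPKM in unstressed controls, 40.9 after *Sin3A* dsRNA, 37.7 after paraquat and 21.3 after both, and 52.4, 32.7, 31.4 and 18.3 FPKM with *lid* dsRNA. Either treatment alone took it to similar values and both together to the lowest, a fitted difference of -1.57 (limma, SE 0.056, adjusted p = 0.00018). *Ts*, thymidylate synthase, which makes the DNA precursor dTMP, went from 80.3 to 36.2, 53.2 and 23.6 FPKM in the same order. *Mcm5*, another helicase subunit, went from 45.1 to 29.3, 29.3 and 17.6 FPKM, and *CG2990*, named *Dna2* by RefSeq, a nuclease and helicase that trims Okazaki fragments, from 8.84 to 5.72, 5.86 and 3.44 FPKM. All 4 were lower after either step. The 7 members not called had log2 ratios between -0.36 and -0.01 and included *Cdc6*, which loads the helicase, with 8.38 and 8.33 FPKM in the control and the stressed knockdown, the small ribonucleotide reductase subunit *RnrS*, and 4 genes of the CMG helicase, *CDC45L*, *Sld5*, *Psf2* and *Psf3*, which were chosen for mention after their values were seen.

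Of 64 mitosis and spindle loci 53 fell and 1 rose, with a median log2 ratio of -1.08. *asp*, abnormal spindle, which focuses microtubules at spindle poles, had the largest fall, with 16.03, 10.1, 8.66 and 3.69 FPKM and, with *lid* dsRNA, 12.6, 7.203, 6.52 and 2.96 FPKM. Its fitted difference was -2.07 (limma, SE 0.082, adjusted p = 0.00018), and it was called lower in both steps. Motor proteins of the kinesin family followed. *cmet*, the CENP-E kinesin of the kinetochore, went from 33.6 FPKM in the control to 10.5 FPKM, *pav*, the kinesin of the cytokinetic central spindle, from 54.0 to 17.0 FPKM, and *ncd*, a minus-end-directed spindle kinesin, from 126 to 42.5 FPKM. The exception was *cnn*, centrosomin, a scaffold of the centrosome, which rose from 30.7 to 53.9 FPKM with intermediate values of 40.5 and 34.6 FPKM (fitted difference 0.86, limma, SE 0.066, adjusted p = 0.00046). Within paraquat-treated cells *Sin3A* dsRNA lowered 38 of the 64 loci, and within the *Sin3A* knockdown paraquat lowered 45. For replication the counts were 23 and 33 of 48. The median log2 ratio of the replication list was -0.50 for the knockdown under paraquat and -0.61 for paraquat in the knockdown, and that of the mitosis list -0.56 and -0.68.

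Regulators of the G1/S transition moved less evenly. Of 10 loci 4 fell and 0 rose. *Cdk4*, the partner of cyclin D, had 33.4, 17.7, 24.8 and 12.9 FPKM and fell mainly with *Sin3A* dsRNA (fitted difference -1.30, limma, SE 0.074, adjusted p = 0.00026). *cdc2c*, which encodes Cdk2, fell from 54.4 to 24.9 FPKM, *Rbf2*, a retinoblastoma family repressor, from 8.45 to 4.54 FPKM, and *CycE*, the cyclin of Cdk2, from 25.1 to 16.4 FPKM. The E2F genes did not pass: *E2f* had 44.2 and 48.2 FPKM and *E2f2* 36.4 and 34.5 FPKM in the control and the stressed knockdown. Among 30 DNA damage and repair loci 14 fell and 1 rose, with a median of -0.48. The falls included the mismatch repair gene *Msh6*, from 30.9 to 10.2 FPKM, and the exonuclease gene *tos*, from 6.42 to 2.51 FPKM. *mre11*, of the complex that binds broken DNA ends, fell from 34.1 to 14.6 FPKM. *lig3*, a DNA ligase, rose from 11.3 to 19.0 FPKM. The damage-response regulator *p53* had 12.2, 7.48, 13.1 and 10.0 FPKM and was not called.

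**Figure D2:**
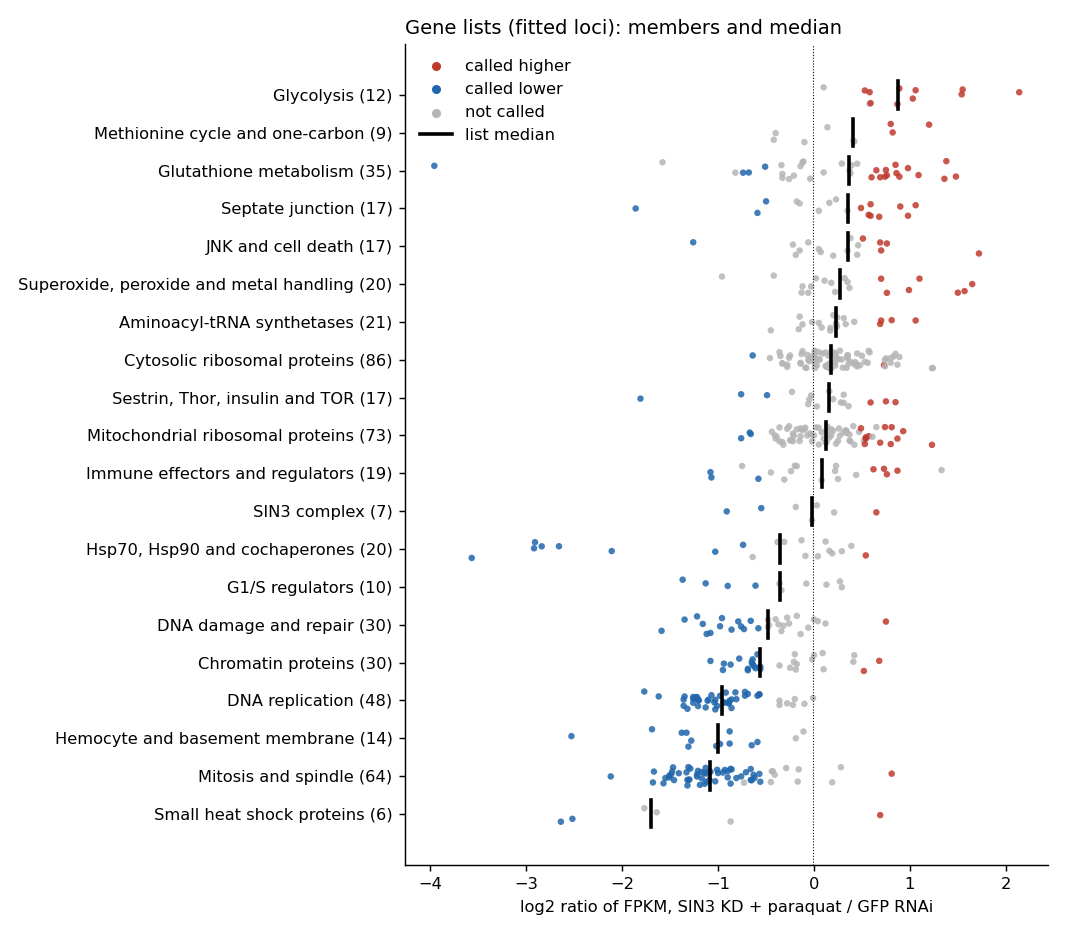
Log2 ratio of pooled FPKM in stressed *Sin3A* knockdown to unstressed control (x axis) for every fitted member of 20 gene lists (rows, with the number of fitted loci), where points are loci coloured by the call and the black bar is the median of the list. The lists of small heat shock proteins, mitosis, basement membrane and DNA replication have medians of -0.96 or lower, and glycolysis has the highest, 0.88.

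Subunits of the SIN3 complex and other chromatin proteins changed by smaller amounts. Of 7 SIN3 complex loci, *Rpd3*, the deacetylase, fell from 102 to 72.9, 81.5 and 54.3 FPKM, with a fitted difference of -0.96 (limma, SE 0.053, adjusted p = 0.00025). *Caf1*, the histone-binding p55 subunit, fell from 131 to 90.0 FPKM, and *Sap130* rose from 18.6 to 29.0 FPKM, with 26.0 FPKM in the *Sin3A* knockdown and 18.1 FPKM in the stressed control. Of 30 other chromatin loci 16 fell and 2 rose, with a median log2 ratio of -0.56. The falls included the remodeller *Chd3* (16.1 to 7.60 FPKM), the insulator protein gene *su(Hw)* (36.04 to 18.7 FPKM), the heterochromatin protein gene *HP4* (109 to 56.9 FPKM) and the histone kinase gene *ball* (42.2 to 23.1 FPKM). *MTA1-like*, of the NuRD complex, rose from 41.2 to 65.9 FPKM, and *Set2*, the H3K36 methyltransferase, rose from 15.8 to 22.6 FPKM. *Set2* was no longer called without the control value, which left 1 rise and 13 falls in the list.

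Hemocyte and basement membrane genes formed the other group that fell nearly as a whole. Of 16 loci 14 were fitted, 12 fell and 0 rose, with a median log2 ratio of -1.0, and the 2 not called were *LanA* and the locus that *ush* shares with *MED15*. The type IV collagen genes *vkg* and *Cg25C*, which lie side by side on chromosome 2L of dm3 (5012144 to 5028191 and 5029609 to 5037279), fell in both steps. *vkg* had 125, 78.8, 80.4 and 38.8 FPKM, a fitted difference of -1.74 (limma, SE 0.096, adjusted p = 0.00025), and *Cg25C* had 167, 119, 119 and 67.2 FPKM, -1.40 (limma, SE 0.12, adjusted p = 0.00064). The laminin genes *LanB1* and *LanB2*, which build the basement membrane with collagen, fell from 344 to 137 FPKM and from 11.3 to 4.34 FPKM, whereas *LanA*, the third laminin chain, had 313 and 289 FPKM. *srp*, the GATA factor of blood cells, fell from 85.7 to 54.8 FPKM, the surface receptor gene *He* from 774 to 383 FPKM, and the phagocytic receptor gene *nimC1* from 6.43 to 2.65 FPKM, the last no longer called without the control value. All 6 fitted hemocyte markers fell and the summed level of the 7 went from 1311 to 747, 899 and 572 FPKM over the 4 states. In a bulk measurement fewer cells of a type and less RNA per cell cannot be told apart, and the part of either in this fall was not tested.

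Heat shock genes had some of the largest log2 ratios, but the unstressed control was the highest of all 8 groups at most of them. *Hsp68*, an inducible member of the Hsp70 family, had 346 FPKM in unstressed controls, 167 after *Sin3A* dsRNA, 45.2 after paraquat and 48.3 FPKM after both. With *lid* dsRNA the values were 171, 29.5, 45.6 and 45.0 FPKM, so the 4 stressed groups lay between 45.0 and 48.3 FPKM whatever the dsRNA, and the unstressed groups spread from 29.5 to 346 FPKM. Its fitted difference was -2.38 (limma, SE 0.59, adjusted p = 0.019), with 0.04 (adjusted p = 0.97) for *Sin3A* dsRNA within paraquat. *Hsp27*, a small heat shock protein that keeps unfolded proteins from aggregating, had 447, 208, 65.6 and 71.5 FPKM and, with *lid* dsRNA, 206, 61.9, 61.0 and 61.0 FPKM, a fitted difference of -2.20 (limma, SE 0.40, adjusted p = 0.0062). *Hsp26*, of the same family, fell from 667 to 117 FPKM, with 112 FPKM in the stressed control. The Hsp70 copies behaved alike, with *Hsp70Bb* at 70.2, 36.01, 7.92 and 9.26 FPKM, *Hsp70Bc* at 22.8, 8.92, 1.69 and 1.91 FPKM and *Hsp70Ba* at 9.57, 4.12, 1.11 and 1.28 FPKM. These copies are nearly identical in sequence, so reads may be divided between them by the alignment and the value of 1 copy is uncertain.

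Over the list of Hsp70, Hsp90 and cochaperones, 20 of 23 loci were fitted, 8 fell and 1 rose, and over the small heat shock proteins 6 of 8 were fitted, 2 fell and 1 rose. None of the falls was called in either last step. The GFP RNAi value was the highest of the 8 groups at 11 of the 20 and 5 of the 6 loci, against 1479 of the 7627 loci fitted. This was not particular to heat shock genes. It held at 34 of 48 DNA replication loci, 48 of 64 mitosis loci and 12 of 14 hemocyte and basement membrane loci. Without that value 0 loci of either heat shock list were called lower, beside 40 DNA replication and 51 mitosis loci. The rises were those of *CG14207*, the fly HspB8, from 51.4 to 83.0 FPKM, and *Hsf*, the heat shock transcription factor, from 60.4 to 87.6 FPKM (fitted difference 0.58, limma, SE 0.082, adjusted p = 0.0027). The constitutive chaperone gene *Hsc70-4*, chosen after its values were seen, moved little, with 1976, 2131, 2089 and 2415 FPKM.

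**Figure D3:**
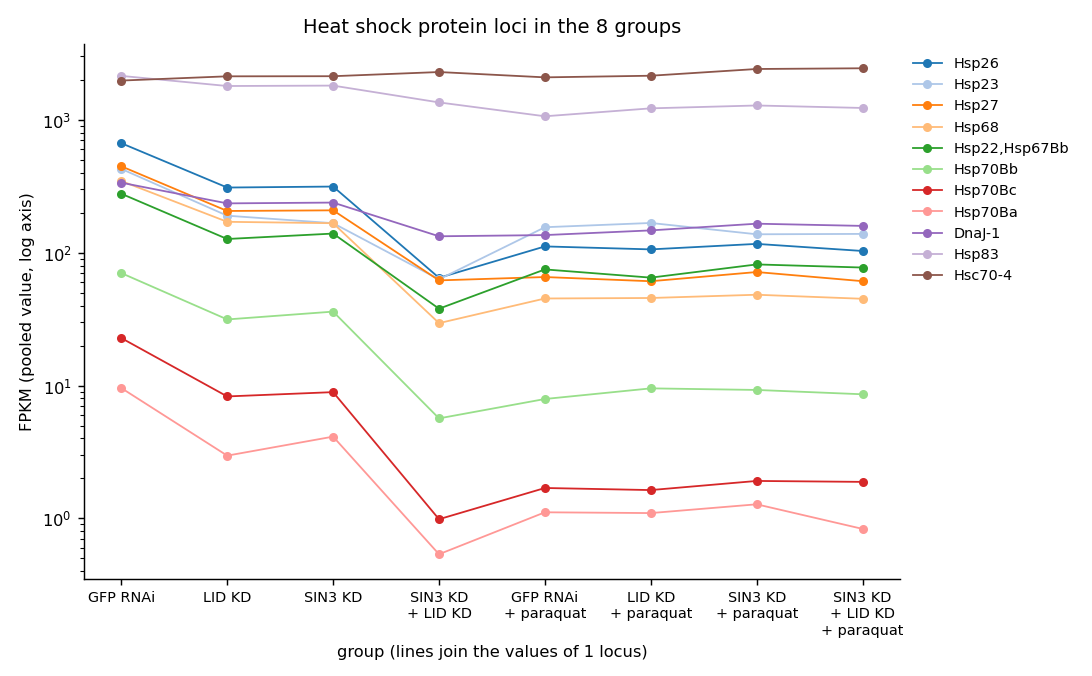
Pooled FPKM (y axis, log scale) of 11 heat shock protein loci in the 8 groups (x axis), with lines joining the values of 1 locus. *Hsp68* starts at 346 FPKM in the unstressed control and lies between 45.0 and 48.3 FPKM in the 4 groups with paraquat, while *Hsc70-4* stays between 1976 and 2445 FPKM throughout.

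Glycolytic enzymes rose together. Of 12 loci 10 rose and 0 fell, all 12 ratios were above 0, and the median log2 ratio was 0.88. *Pfk*, phosphofructokinase, the committed step of the pathway, went from 34.5 FPKM in the control to 54.2 with the knockdown, 64.9 with paraquat and 101 FPKM with both, a fitted difference of 1.48 (limma, SE 0.060, adjusted p = 0.00018). Like *ImpL3* it was called in both last steps. *Tpi*, triosephosphate isomerase, and *Eno*, enolase, had 89.7, 104, 225 and 261 FPKM and 204, 221, 380 and 427 FPKM. With *lid* dsRNA the values were 134, 193, 188 and 267 FPKM for *Tpi* and 286, 347, 346 and 429 FPKM for *Eno*, where either treatment alone gave similar values, and neither last step was called for either gene. *Gapdh1*, glyceraldehyde-3-phosphate dehydrogenase, had 131, 153, 211 and 242 FPKM (fitted difference 0.72, limma, SE 0.11, adjusted p = 0.0036). Within the *Sin3A* knockdown paraquat raised 6 of the 12, and under paraquat *Sin3A* dsRNA raised 2. The median log2 ratio was smaller with *lid* dsRNA, 0.56, and without the control value 5 of the rises were left, *Tpi* and *Eno* not among them.

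Among glutathione genes, 35 of 46 loci were fitted, 14 rose and 4 fell, with a median log2 ratio of 0.37. *Keap1*, the sensor that holds back the antioxidant factor CncC, was one of 3 members called in both last steps, with *GstE9* and *GstE11*, and had 14.1, 23.1, 15.7 and 36.2 FPKM and, with *lid* dsRNA, 13.1, 24.3, 19.8 and 42.4 FPKM. Its fitted difference was 1.52 (limma, SE 0.11, adjusted p = 0.00043). Glutathione S-transferases, which attach glutathione to reactive compounds, went in different directions. *GstE11* rose from 5.98 to 16.7 FPKM, *GstE9* from 90.9 to 237 FPKM, *GstE6* from 64.8 to 120 FPKM and *GstD2* from 7.42 to 15.8 FPKM. Of these *GstE6* and *GstD2* had no higher value in the *Sin3A* knockdown alone (62.8 and 7.196 FPKM) than in the control, and paraquat within the knockdown was called for all 4. *GstE2* fell from 43.2 to 25.9 FPKM with 51.5 FPKM in the stressed control and 18.4 FPKM in the *Sin3A* knockdown alone, a fitted difference of -0.93 (limma, SE 0.097, adjusted p = 0.001). *GstO1* (20.6 to 12.8 FPKM) and *GstE13* (37.6 to 26.5 FPKM) also fell, but not without the control value, which left 2 falls, and neighbouring GstE and GstD genes are similar enough in sequence that reads may be shared. Chosen after their values were seen, the glutathione peroxidase gene *PHGPx* rose with *Sin3A* dsRNA, with 195, 375, 199 and 385 FPKM, and *Gclc*, the catalytic subunit of glutathione synthesis, rose from 42.9 to 72.4 FPKM.

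The genes for superoxide, peroxide and metal handling were split between rises and members not called. Of 25 superoxide, peroxide and metal loci 20 were fitted, 7 rose and 0 fell. *Fer1HCH*, the ferritin heavy chain that stores iron, had 935, 1172, 2218 and 2648 FPKM and 878, 1009, 2136 and 2308 FPKM with *lid* dsRNA, a fitted difference of 1.45 (limma, SE 0.075, adjusted p = 0.00023). The 4 stressed groups thus lay at 2136 FPKM or above and the 4 unstressed ones at 1172 FPKM or below. The metallothionein gene *MtnA*, whose product binds metal ions, had 218, 164, 762 and 647 FPKM, and *MtnE* had 1.53, 0.981, 2.77 and 4.82 FPKM; *MtnA* was no longer called without the control value. *Idh*, an NADPH-making isocitrate dehydrogenase, rose mostly with *Sin3A* dsRNA, with 213, 372, 282 and 458 FPKM. Of the enzymes that take up superoxide or hydrogen peroxide directly, *Sod*, *Sod2* and *Cat* did not pass. *Sod* had 147 and 190 FPKM, *Sod2* 93.4 and 94.9 FPKM and *Cat* 42.3 and 48.0 FPKM in the control and the stressed knockdown.

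Of 17 fitted JNK and cell death loci 5 rose and 1 fell. *Gadd45*, a stress-induced activator of JNK kinases, had 3.42, 4.00, 9.58 and 11.3 FPKM, a fitted difference of 1.88 (limma, SE 0.11, adjusted p = 0.00028), and paraquat within the knockdown was called while *Sin3A* dsRNA within paraquat was not. *Traf4*, an adaptor of TNF receptors, rose from 9.86 to 16.7 FPKM, the Bcl-2 family gene *debcl* from 92.1 to 149.9 FPKM and the caspase gene *Dcp-1* from 14.1 to 22.7 FPKM. *egr*, the fly TNF, fell from 38.9 to 16.2 FPKM, and this fall and the rise of *debcl* were not called without the control value. In the Sestrin, insulin and TOR list of 17 loci 3 rose and 3 fell, beside 13.1% and 15.2% of all fitted loci. *Sesn*, Sestrin, an inhibitor of TOR, fell from 26.1 to 7.78, 17.4 and 7.46 FPKM, and with *lid* dsRNA from 11.6 to 5.63, 10.5 and 6.04 FPKM, a fitted difference of -1.36 (limma, SE 0.20, adjusted p = 0.0032). *Thor*, the translation repressor 4E-BP, rose from 257 to 460, 308 and 465 FPKM (0.64, limma, SE 0.14, adjusted p = 0.011), a call lost without the control value. Both followed *Sin3A* dsRNA, which was called for each within paraquat, and for neither was the paraquat step called. *chrb*, another inhibitor of TOR, rose from 17.1 to 28.8 FPKM, *Lk6*, a kinase of eIF4E, from 223 to 336 FPKM, and the insulin receptor gene *InR* fell from 10.99 to 6.50 FPKM. *Tor* itself fell from 31.5 to 22.4 FPKM, a call that was lost without the control value and with the groups centred on their medians.

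Some methionine cycle and tRNA synthetase genes rose, those called doing so with *Sin3A* dsRNA. *Sam-S* encodes S-adenosylmethionine synthetase, which makes the methyl donor of the cell. It had 239.9, 484, 275 and 552 FPKM, and 277, 433, 347 and 567 FPKM with *lid* dsRNA, a fitted difference of 1.12 (limma, SE 0.12, adjusted p = 0.0011). *Ahcy13*, which removes the product S-adenosylhomocysteine, rose from 154 to 272 FPKM, and *CG10623*, a predicted homocysteine methyltransferase, from 11.3 to 19.7 FPKM; neither was called without the control value, which left 1 of the 3 rises among 9 fitted loci. For all 3 *Sin3A* dsRNA was called within paraquat and paraquat within the knockdown was not. Of 21 aminoacyl-tRNA synthetase loci 4 rose and 0 fell. *Aats-tyr*, tyrosyl-tRNA synthetase, was higher in each setting with *Sin3A* dsRNA, with 56.4, 108, 56.0 and 117 FPKM (1.02, limma, SE 0.057, adjusted p = 0.00025). *Aats-asp* rose from 111 to 196 FPKM, *Aats-cys* from 52.97 to 86.1 FPKM and *Aats-ala-m* from 18.2 to 29.4 FPKM.

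Of 73 mitochondrial ribosomal loci 12 rose and 3 fell, with a median log2 ratio of 0.13, a number of rises near the 13.1% of all fitted loci. Under paraquat *Sin3A* dsRNA raised 20 of the 73 and lowered 0, and within the knockdown paraquat raised 0 and lowered 3. *mRpL40* had 22.6, 46.7, 26.9 and 52.96 FPKM (1.05, limma, SE 0.097, adjusted p = 0.00072), *mRpS18C* rose from 27.7 to 52.98 FPKM, *mRpS6* from 18.6 to 33.9 FPKM and *mRpL19* from 34.6 to 60.3 FPKM, all at the level of the *Sin3A* knockdown alone or near it. *mRpL42* differed, with 31.67, 36.52, 39.35 and 55.61 FPKM, and was not called without the control value. *mRpL20*, *mRpL34* and *mRpS11* fell, from 54.5 to 32.2, from 81.2 to 51.0 and from 61.1 to 38.7 FPKM. Without the control value 5 rises and 5 falls were called. Of 86 fitted cytosolic ribosomal loci 1 rose and 1 fell, *RpL24-like* from 149 to 248 FPKM and *RpS15Ab* from 62.4 to 40.1 FPKM, and neither was called without the control value. *RpL28*, chosen after its values were seen, was not called although its pooled values differed widely, with 2139, 4963, 7036 and 5069 FPKM and, with *lid* dsRNA, 2626, 2688, 2616 and 4457 FPKM, so the states did not repeat.

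Septate junction genes, which encode the barrier seal between neighbouring cells, rose more often than they fell. Of 17 loci 8 rose and 3 fell, with a median log2 ratio of 0.35. *Gli*, gliotactin of the corner junctions, had 23.2, 35.8, 27.6 and 48.4 FPKM (0.98, limma, SE 0.076, adjusted p = 0.00047), and *vari*, a scaffold of the junction on chromosome 2L of dm3 (20787656 to 20797042), had 33.5, 52.9, 38.6 and 66.0 FPKM (0.92, limma, SE 0.060, adjusted p = 0.00035). *sinu*, a claudin, rose from 16.5 to 30.8 FPKM with 33.8 FPKM in the *Sin3A* knockdown, and *Tsf2*, a transferrin needed for the junction, from 28.3 to 45.5 FPKM with 52.6 FPKM in the *Sin3A* knockdown. Under paraquat *Sin3A* dsRNA raised 7 of the 17, and paraquat within the knockdown raised 0. *bou*, a Ly6 protein of the junction, fell from 2.96 to 1.19, 2.89 and 0.812 FPKM (-1.64, limma, SE 0.17, adjusted p = 0.00093). The falls of *Atpalpha* (691 to 460 FPKM) and *Nrg* (117 to 82.7 FPKM) were not called without the control value.

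Immune genes went both ways. Of 30 loci 19 were fitted, 4 rose and 3 fell, beside 13.1% and 15.2% of all fitted loci. *dl*, the NF-kappaB factor Dorsal, rose from 89.5 to 138 FPKM and the thioester protein gene *Tep2* from 36.5 to 61.8 FPKM. The attacin genes *AttA* and *AttB*, near-identical antibacterial peptide genes that may share reads, rose from 3.18 to 5.79 FPKM and from 6.10 to 10.1 FPKM, and *CecB*, a cecropin, fell from 69.3 to 32.8 FPKM. *Tep4* fell from 73.7 to 35.2 FPKM and *Tep1* from 14.4 to 9.64 FPKM. Without the control value 2 rises and 1 fall were left, those of *dl*, *Tep2* and *Tep1*. Of the remaining genes that the study followed by other assays, *CG3476*, named *MME1* by RefSeq, a mitochondrial carrier, rose from 24.5 to 51.1 FPKM, *Cyt-c-p*, cytochrome c, from 613 to 1068 FPKM, and *ihog*, a Hedgehog co-receptor, fell from 11.9 to 6.61 FPKM. *Ssdp* had 21.5, 24.2, 20.1 and 21.7 FPKM and was not called. Of markers of other cell types, *elav* of neurons (3.22 to 4.87 FPKM) and *Mlc2* of muscle (0.931 to 2.15 FPKM) rose from low levels, and the call of *elav* was lost without the control value and with 1 FPKM added.

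**Figure D4:**
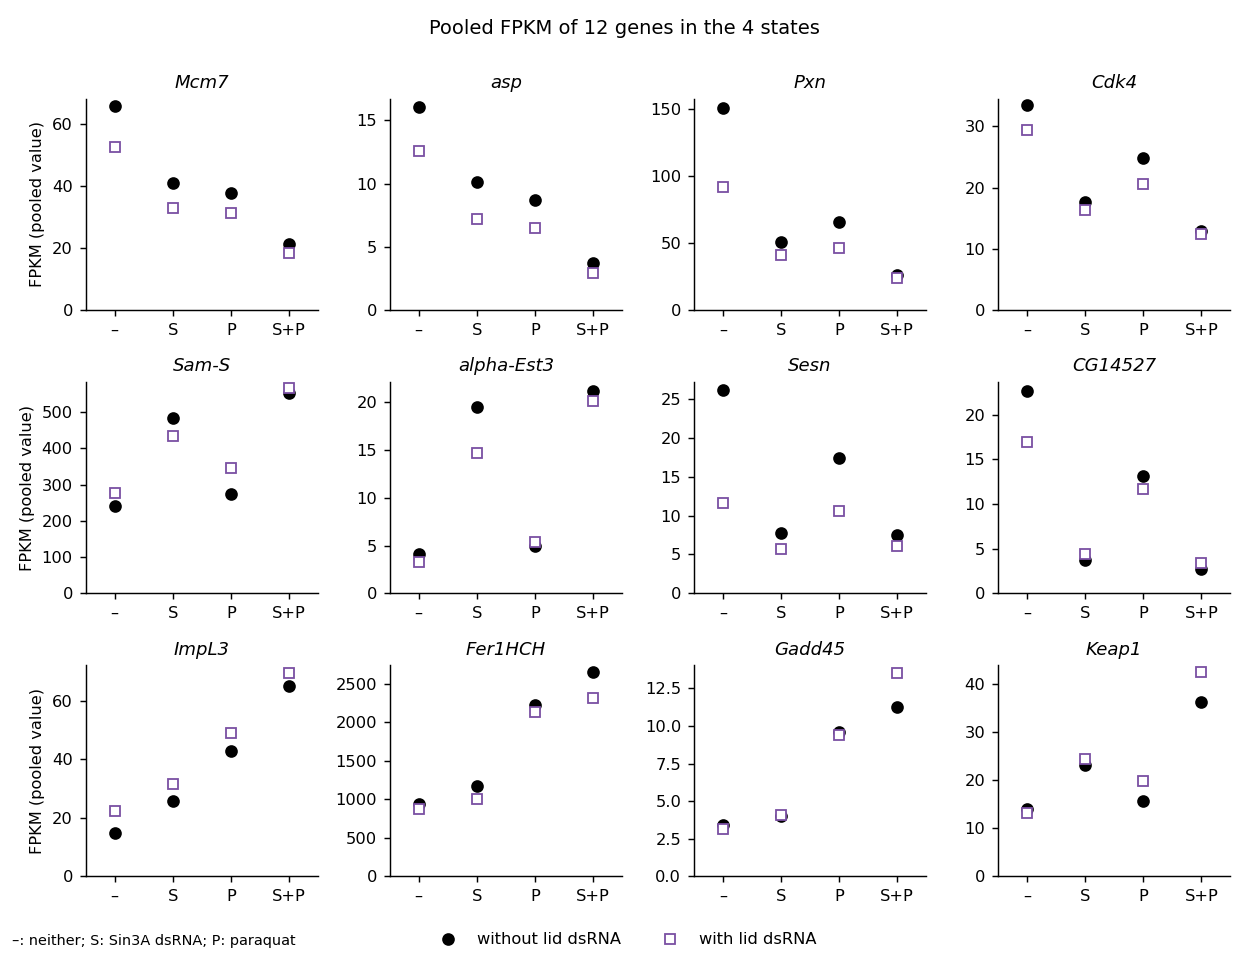
Pooled FPKM (y axes, from 0) of 12 genes in the 4 states of *Sin3A* dsRNA and paraquat (x axes), without *lid* dsRNA (black circles) and with it (open squares), 1 value per group. *Mcm7*, *asp* and *Pxn* step down with either treatment, *Sam-S*, *alpha-Est3*, *Sesn* and *CG14527* follow *Sin3A* dsRNA, *Fer1HCH* and *Gadd45* follow paraquat, and *Keap1* is highest where both meet, at 36.2 and 42.4 FPKM.

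**Figure D5:**
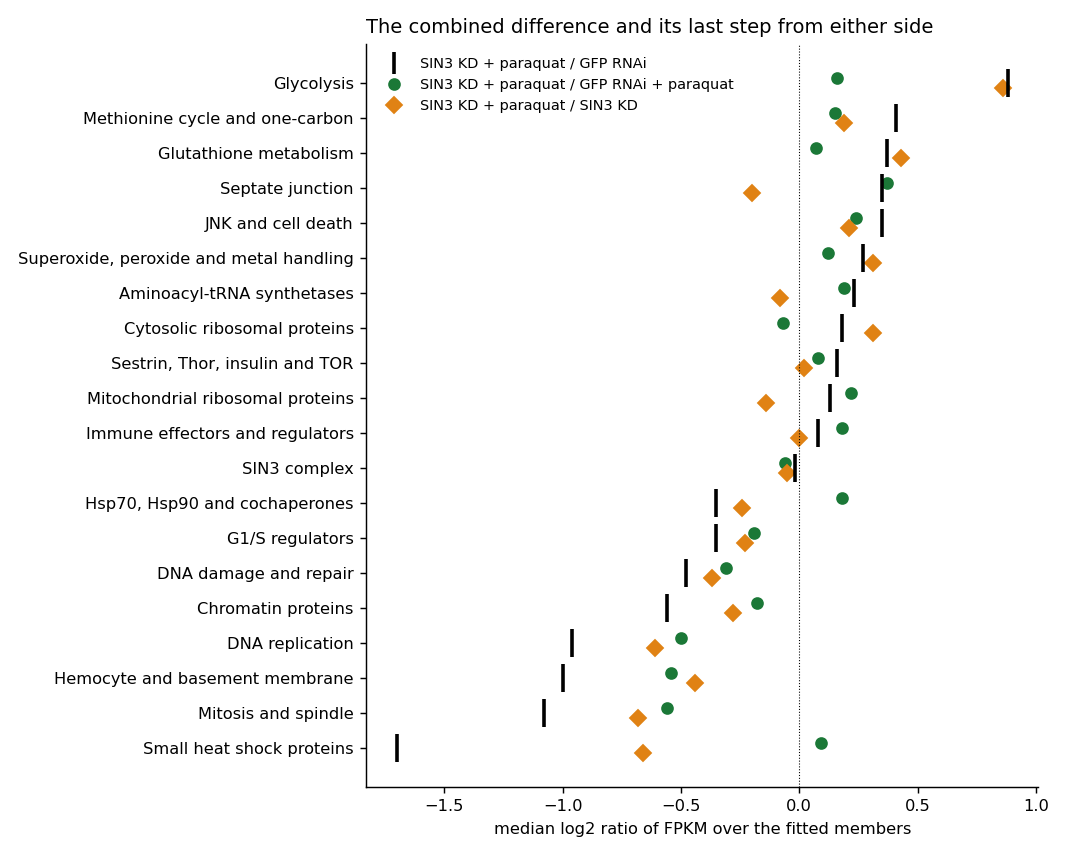
Median log2 ratio of pooled FPKM over the fitted members of each list (x axis) for stressed *Sin3A* knockdown against unstressed control (black bars), against stressed control (green circles) and against unstressed *Sin3A* knockdown (orange diamonds), all of which share the stressed *Sin3A* knockdown. DNA replication lies at -0.50 and -0.61 in the last steps, glycolysis at 0.16 and 0.86, and septate junction at 0.37 and -0.20.

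Whether the combined difference was more or less than the sum of the 2 single ones was tested in the same fit, as the departure of the stressed *Sin3A* knockdown from that sum on the log2 scale. No locus passed: 0 of 7627 had an adjusted p-value below 0.05 in limma, the smallest was 0.74, and 304 loci (3.99%) had an unadjusted p-value below 0.05, of which 168 departures were positive. The departures had a median of -0.01 with quartiles of -0.09 and 0.08 and a median SE of 0.12, so departures of this size could not be resolved, and a p-value that misses the threshold does not show that the effects add up. The median departure was -0.11 over DNA replication and mitosis genes, 0.01 over glycolysis, 0.16 over glutathione genes and 1.36 over the small heat shock proteins, where the unstressed control enters with the highest value. Single departures were chosen after their values were seen, among the loci with the smallest unadjusted p-values and not by size. Larger departures occurred, such as 2.33 at *Hsp70Bc* (limma, SE 1). *CG15423* had a departure of 1.11 (limma, SE 0.16, adjusted p = 0.83), and the trehalose transporter gene *Tret1-1* had 0.61 (limma, SE 0.078, adjusted p = 0.74). The 4 values of *Tret1-1* were 59.8, 53.6, 82.2 and 112 FPKM, and 78.9, 65.9, 106 and 135 FPKM with *lid* dsRNA, so *Sin3A* dsRNA went with a lower value without paraquat and a higher one with it in both sets.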

How the data were processed

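RNA was sequenced from 3 biological replicates of each of 8 groups of S2 cells. Per the labels and the study's methods, the authors aligned paired reads with TopHat to dm3, assembled RefSeq genes with Cufflinks and compared each group with GFP RNAi by Cuffdiff; tool versions are not given in the sources used here. The deposited tables give 1 FPKM per group and locus, with the replicates combined by the authors, so no replicate error could be computed. The paper states an approximate depth of coverage, and the read depth of each library is unknown. The GFP RNAi values were the same in all tables. The tables' own comparison columns (log2 fold change, ratio, fold change, test statistic, p-value, q-value and a significance mark) were not used, and status was used only to choose loci.

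Log2(FPKM + 0.1) was fitted with limma 3.58.1 in R 4.3.3 (empirical Bayes with an intensity trend) to 4 states plus *lid* dsRNA, over loci with status OK and a mean of at least 1 FPKM. Tests are two-sided with Benjamini-Hochberg adjustment. Groups came from the sample labels. Because the residual compares only 8 group values, p-values measure how a state repeated with *lid* dsRNA and not the spread between cultures. The script was tested on simulated data. Named genes are the 8 largest rises and the 8 largest falls among called loci that hold 1 gene name, have at least 1 FPKM in both groups and keep their direction with *lid* dsRNA, up to 4 called members per list and direction, genes the study followed by quantitative PCR, *Sin3A* and *lid*; other list members were chosen after their values were seen. The comparison, the lists and the tests were chosen with earlier results of these data known. Alternatives changed the pseudocount, filter, centring, fold and p thresholds, model and variance prior. Loci named for more than 1 gene were kept as 1 locus. Coordinates are dm3 and counted from 1. No sequences were analysed. The result of 1 named gene is not reported here.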

Additional observations from a re-analysis of the deposited data

How the results depend on the processing

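No paired analysis was possible because the deposited columns are pooled over replicates and carry no replicate numbers, and for the same reason no replicate could be left out. The counts of 998 rises and 1159 falls stayed within 1.5 times under each of the alternatives listed in the methods except a threshold of over 2-fold, which by its construction left 234 and 394; for the pooled ratio that threshold left 345 loci higher and 549 lower. The share of falls among calls was 53.7%, rose to 62.7% at over 2-fold, and lay between 50.6% and 54.3% in the others. In an alternative chosen after seeing the data, the GFP RNAi control value was left out and the fold was taken from the pair with *lid* dsRNA. In it 884 and 907 loci were called, of which 1521 were also among the original calls. Of the named genes 30 lost their call there, 54 at over 2-fold and 17 at an adjusted p below 0.01. With 1 FPKM added *Tor* and *elav* lost it, with centred groups *Tor*, and with a variance prior without a trend *AttB* and *snoRNA:Psi28S-3385a*. No named gene changed direction in any of these. The precision is limited by 1 pooled value per group and by the 8 values behind each fit.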

Other observations

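Genes of the small chromosome 4 and of the X chromosome were shifted downward in the stressed *Sin3A* knockdown, a pattern noticed in these data. Of 74 fitted loci on chromosome 4, 22 fell and 0 rose, beside 15.2% and 13.1% of all fitted loci. Their median log2 ratio was -0.29, and -0.27 in the pair with *lid* dsRNA. The shift went with *Sin3A* dsRNA, with medians of -0.29 without paraquat and -0.32 with it, against 0.05 for paraquat alone. On the X chromosome 245 of 1273 loci fell and 82 rose, again beside 15.2% and 13.1% of all fitted loci. The median on the X was -0.11, whereas on the arms of chromosomes 2 and 3 the medians lay between -0.00 and 0.03. These medians carry no test, and loci of 1 chromosome are not replicates.

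Some small nucleolar RNA loci had uneven values. Of 110 fitted, 10 rose and 4 fell, beside 13.1% and 15.2% of all fitted loci, with a median log2 ratio of 0.09. *snoRNA:Or-aca1* stood at 6.39, 6.65, 1.94 and 14.5 FPKM in the control, the *Sin3A* knockdown, the stressed control and the stressed *Sin3A* knockdown, and at 5.56, 7.62, 3.24 and 20.6 FPKM with *lid* dsRNA. *snoRNA:tra2-a* had 4.72, 8.17, 31.8 and 8.92 FPKM. Both were among the 6 loci with the smallest unadjusted p-value for a departure from the sum, none of which passed the adjustment in limma.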
